A study of Mus musculus with 48 samples.

Results

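The genes described here are 10 genes of oligodendrocyte precursors and of their differentiation, Pdgfra, Cspg4, Gpr17, Bcas1, Enpp6, Itpr2, Tcf7l2, Nkx2-2, Zfp488 and Anln, out of 48795 in the table of counts. All 10 were found by gene name and all 10 passed the filter on low counts, which 19547 genes passed. Enpp6, Zfp488 and Anln were selected on their measured log2 fold changes, having been called higher in Q140 than in wild-type cortex in an earlier analysis of these libraries, and the other 7 were taken for their textbook roles. The values that selected them are therefore given as a description, with no test.

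Oligodendrocytes, the cells that myelinate axons, arise from dividing precursors that first commit to differentiation, then pass through a short-lived newly formed stage and finally build myelin. In that order, precursors are known by the receptor Pdgfra and the proteoglycan Cspg4, committed and newly forming cells by genes such as Gpr17, Bcas1, Enpp6, Itpr2 and Tcf7l2, and mature cells by the myelin genes. In adult cortex precursors persist and a small flow of newly formed oligodendrocytes continues.

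RNA from the cerebral cortex of 48 mice on the C57BL/6 strain, 12 months old, was sequenced from 6 genotypes of 8 mice, 4 females and 4 males each. Wild-type mice carried neither mutation. Msh3+/- and Msh3-/- mice carried 1 or 2 mutant alleles of Msh3, a mismatch repair gene whose product promotes the expansion of CAG repeats in somatic cells. Q140 mice were heterozygous for an Htt knock-in that lengthens the CAG repeat, a model of Huntington's disease in which the mutant protein is made from the gene's own locus. The last groups combined heterozygous Q140 with Msh3+/- or with Msh3-/-. The extraction protocol speaks of striatum at an earlier age, whereas the other labels give cortex at 12 months. The cortical glutamatergic gene Slc17a7 had a median of 1358 CPM (counts per mega-count of the normalized library total), against 6.10 and 1.90 CPM for the striatal neuron genes Drd1 and Adora2a.

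Libraries held between 37.7 and 68.3 M counts each (M for mega), and the median library held 48.6 M. Msh3 itself had 20.5 to 23.5 CPM in wild type, 55.3 to 64.7 CPM in Msh3+/- and 84.2 to 108 CPM in Msh3-/-. The count followed the labels upwards, and which part of the gene is deleted is not given, so it does not measure the loss of functional transcript. In 7 libraries, transcripts of choroid plexus or pituitary exceeded 5 times the median of all libraries. These were 3 wild-type, 3 Msh3+/- and 1 Msh3-/- library, all from males and none with Q140. The Q140 differences of Enpp6 and Anln and the sex difference of Bcas1 are given with and without them.

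The promoters of Enpp6, Zfp488 and Anln are shown because these 3 genes differed between genotypes, and because it lets their sequences be set side by side. RefSeq entries on GRCm38.p6 were matched for 8 of the 10 genes. Each line gives the 250 bases before the transcription start, 5′ to 3′ on the strand of the gene, from chr8:46986637-46986886 (plus strand), chr14:33978765-33979014 (minus strand) and chr9:22389207-22389456 (minus strand). Capitals mark matches, on either strand, to the SOX cores ACAAAG and ACAATG, the TCF7L2 motif ATCAAAG, the E-box CAGCTG or the NKX2-2 motif TNAAGTG.
Enpp6: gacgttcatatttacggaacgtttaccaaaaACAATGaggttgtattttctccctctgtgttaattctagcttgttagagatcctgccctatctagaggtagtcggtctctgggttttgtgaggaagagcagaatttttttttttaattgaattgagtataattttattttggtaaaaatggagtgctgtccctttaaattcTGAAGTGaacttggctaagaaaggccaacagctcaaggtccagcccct
Zfp488: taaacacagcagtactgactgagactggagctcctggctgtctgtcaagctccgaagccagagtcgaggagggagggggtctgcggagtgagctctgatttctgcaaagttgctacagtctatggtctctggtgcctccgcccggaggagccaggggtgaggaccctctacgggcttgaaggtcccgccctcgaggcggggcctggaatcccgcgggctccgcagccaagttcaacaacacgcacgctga
Anln: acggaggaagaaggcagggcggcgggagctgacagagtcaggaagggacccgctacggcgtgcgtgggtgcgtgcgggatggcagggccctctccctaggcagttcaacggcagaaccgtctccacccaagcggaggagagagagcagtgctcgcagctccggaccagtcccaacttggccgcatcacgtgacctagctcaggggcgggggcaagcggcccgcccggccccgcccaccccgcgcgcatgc

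Enpp6 held ACAATG, starting 219 bases before the start, and TGAAGTG, starting 48 bases before it. Zfp488 and Anln held none of the 5 motifs in these windows. Of 32851 promoters of the same length, 10.7% held ACAATG, 10.1% TNAAGTG, 16.5% ACAAAG, 3.21% ATCAAAG and 13.0% CAGCTG. The motifs ATCAAAG and ACAAAG share their last 5 letters but do not contain each other. The windows also differed in composition, with 38.4% G and C bases in Enpp6, 61.6% in Zfp488 and 70.4% in Anln, against a median of 52.4% over all promoters.

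Enpp6 (ENSMUSG00000038173) lies on GRCm38 chromosome 8 from 46986887 to 47096762, Zfp488 (ENSMUSG00000044519) on chromosome 14 from 33967070 to 33978764 and Anln (ENSMUSG00000036777) on chromosome 9 from 22332012 to 22389188, in GENCODE M21. None of the 10 genes shares chromosome 13 with Msh3. Pdgfra is on chromosome 5 with Htt, 40.4 megabases away. Exons of Bcas1, Gpr17, Nkx2-2 and Pdgfra overlap exons of a gene on the opposite strand by 34 to 456 bases. The strand setting used for counting is not given in the sources used here, so reads of such partners may not have been told apart in these 4 genes. Enpp6, Zfp488 and Anln have no such exon overlap.

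Levels can be compared between genes only per length, for which the deposited FPKM values, which scale counts by gene length and library total, were used. In wild-type cortex Bcas1, a gene of oligodendrocytes that are starting to myelinate, was highest at 22.4 ± 4.81 FPKM (SD, n = 8). It was followed by Gpr17, a receptor of committed precursors, at 5.89 ± 0.466 FPKM and Pdgfra at 4.74 ± 0.353 FPKM. Anln had 2.94 ± 0.235, Cspg4 2.50 ± 0.208 and Itpr2, a calcium channel of the endoplasmic reticulum, 1.89 ± 0.121 FPKM. The transcription factor genes were low, with Nkx2-2 at 0.811 ± 0.159, Tcf7l2 at 0.489 ± 0.046 and Zfp488 at 0.488 ± 0.035 FPKM. Enpp6 was lowest at 0.310 ± 0.054 FPKM. Neighbours in this order were separated by more than their summed SDs except Anln and Cspg4, which lay within them, and Tcf7l2 and Zfp488, which were level. In Q140 cortex Enpp6 had 0.618 ± 0.053 and Zfp488 0.693 ± 0.044 FPKM, both above Tcf7l2 at 0.472 ± 0.059 FPKM.

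The genes of low level had few counts. Enpp6 had 54 to 247 counts per library and Zfp488 73 to 179, against 499 to 1524 for Anln and 2738 to 7267 for Bcas1. Within genotype and sex, CPM varied by 18.8% (coefficient of variation) for Enpp6, 12.4% for Zfp488, 13.9% for Anln and 15.7% for Bcas1. Nkx2-2 was the most variable at 21.4%, and Pdgfra the least at 6.99%. The part of depth in this variation was not tested.

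The precursor genes overlapped across all genotypes. Pdgfra, the receptor through which platelet-derived growth factor drives precursor division, had a median of 47.9 CPM in wild type (lowest 43.4, highest 52.3) and 46.6 in Q140 (43.3 to 53.3). With Msh3+/- its median was 46.5 without Q140 and 45.6 with it, and with Msh3-/- it was 43.7 without and 45.4 with Q140. All 6 groups overlapped. Over the 2 Msh3 mutant genotypes together, 16 Q140 mice against 16 without, the log2 fold change was 0.00 ± 0.036 (SE, edgeR adjusted p = 1), with a 95% interval from -0.07 to 0.07.

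Cspg4, which encodes the NG2 proteoglycan of the precursor surface, was not called in that comparison either. Its medians were 20.7 CPM in wild type, 19.1 in Q140, 20.9 in Msh3+/-, 21.6 in Q140 with Msh3+/-, 19.9 in Msh3-/- and 20.8 in Q140 with Msh3-/-. Single libraries ran from 16.8 to 24.3 CPM and overlapped in every pair of groups. The Q140 difference over both Msh3 mutant genotypes was 0.03 ± 0.043 (adjusted p = 0.877), with an interval from -0.05 to 0.12.

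Among the genes of committed and newly forming cells, Enpp6 alone was chosen for being higher in Q140 than in wild type. It encodes a choline-specific phosphodiesterase and is a textbook marker of newly forming oligodendrocytes. Wild-type libraries held 1.26 to 2.42 CPM with a median of 2.06, and Q140 libraries 3.49 to 4.43 CPM with a median of 3.92. All 8 Q140 libraries were above the highest wild-type library. In Msh3+/- the range was 1.30 to 2.89 CPM (median 2.06), and in Q140 with Msh3+/- it was 2.50 to 4.55 CPM (median 3.29). Here 6 of 8 Q140 libraries were above the highest library without Q140. In Msh3-/- the range was 1.68 to 2.80 CPM (median 2.19), and in Q140 with Msh3-/- it was 2.07 to 3.48 CPM (median 2.57). These last groups overlapped, with 2 of 8 Q140 libraries above the highest Msh3-/- library. How many of all genes separated in these ways was not counted, for Enpp6 or for the genes below.

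**Figure D1:**
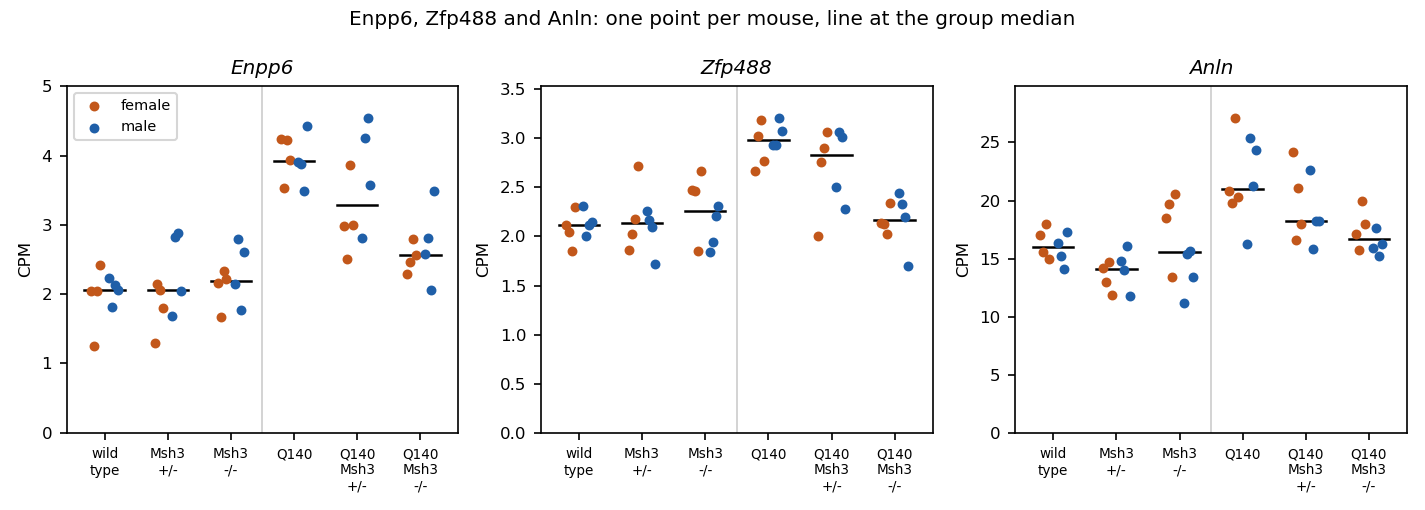
Normalized counts in CPM (vertical axis, from 0) of Enpp6, Zfp488 and Anln in the 6 genotypes, 1 point per mouse, females orange and males blue, with a bar at the group median. All 3 genes were chosen for being higher in Q140 than in wild type. In Enpp6 the Q140 points lie at 3.49 to 4.43 CPM and the wild-type points at 1.26 to 2.42 CPM. The Q140 with Msh3-/- points, at 2.07 to 3.48 CPM, lie below the Q140 points.

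Zfp488, a zinc finger repressor that promotes oligodendrocyte differentiation together with Olig2, had 1.86 to 2.31 CPM in wild type (median 2.11) and 2.67 to 3.21 in Q140 (median 2.98). Again all 8 Q140 libraries were above the highest wild-type library. It had 1.72 to 2.71 CPM in Msh3+/- (median 2.13) and 2.01 to 3.07 in Q140 with Msh3+/- (median 2.83), where 5 of 8 were above. In Msh3-/- it had 1.84 to 2.66 CPM (median 2.26), and in Q140 with Msh3-/- 1.70 to 2.44 CPM (median 2.16). No library of Q140 with Msh3-/- was above the highest Msh3-/- library.

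Anln encodes anillin, a scaffold that links actin, myosin and septins at the cleavage furrow and, in mature oligodendrocytes, lies with septins in the myelin sheath. Its wild-type libraries held 14.1 to 18.0 CPM (median 15.98) and Q140 libraries 16.3 to 27.1 CPM (median 21.0), with 7 of 8 above the highest wild-type library. In Msh3+/- it had 11.8 to 16.1 CPM (median 14.1), and in Q140 with Msh3+/- 15.8 to 24.2 CPM (median 18.2), again with 7 of 8 above. In Msh3-/- the range was 11.1 to 20.6 CPM (median 15.6), and it enclosed every library of Q140 with Msh3-/- (15.2 to 20 CPM, median 16.7).

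For Q140 against wild type, the comparison that chose the first 3 genes, the log2 fold changes (± SE) were 0.96 ± 0.12 for Enpp6, 0.49 ± 0.091 for Zfp488 and 0.45 ± 0.096 for Anln. The other 7 genes lay between -0.07 and 0.16. In this comparison edgeR called 0.102% of all genes, at a Benjamini-Hochberg adjusted p under 0.05, and nothing is read from the members' count because it fixed the choice. Without the 7 libraries with choroid plexus or pituitary transcripts, Enpp6 was at 0.918, Zfp488 at 0.489 and Anln at 0.466. In bulk cortex, more cells of a type and more RNA per cell cannot be told apart, here or below.

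The mice with mutant Msh3 took no part in that choice, although calls of Enpp6 and Anln in the Msh3+/- comparison were already known. In Q140 with Msh3+/- against Msh3+/-, edgeR called 0.0512% of genes, among them 2 of the 10. Enpp6 rose by 0.73 ± 0.124 on the log2 scale (1.66-fold, edgeR adjusted p = 0.00087) and Anln rose by 0.48 ± 0.099 (1.40-fold, adjusted p = 0.0341). Zfp488 was at 0.34 ± 0.094 and did not pass (adjusted p = 0.276). The other 7 genes lay between -0.03 and 0.06.

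The call of Anln was close to its threshold. It did not pass when any of 10 single libraries was left out, namely Msh3+/- F1, F2, F4, M2 and M4 or Q140 with Msh3+/- F1, F3, M1, M3 and M4, with adjusted p from 0.0564 to 0.13 and log2 fold changes from 0.434 to 0.492. Nor did it pass with the first part of the sample name as a random block in limma (adjusted p = 0.0537) or without the filter on low counts (adjusted p = 0.0884). Enpp6 passed in all 48 fits that left out 1 library. When only the 16 libraries of these groups were fitted, both genes had an adjusted p of 0.0508. Without the same 7 libraries the differences were 0.84 for Enpp6 and 0.597 for Anln.

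In Q140 with Msh3-/- against Msh3-/-, edgeR called 0.0205% of genes and none of the 10. None of the 10 had an unadjusted p under 0.05 there, against 6.77% of all genes, and DESeq2 also called 0 of them. Enpp6 differed by 0.22 ± 0.127 (adjusted p = 0.743), with a 95% interval from -0.03 to 0.48. Zfp488 was at -0.03 ± 0.096, with an interval from -0.22 to 0.17, and Anln at 0.10 ± 0.098, with an interval from -0.09 to 0.30.

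**Figure D2:**
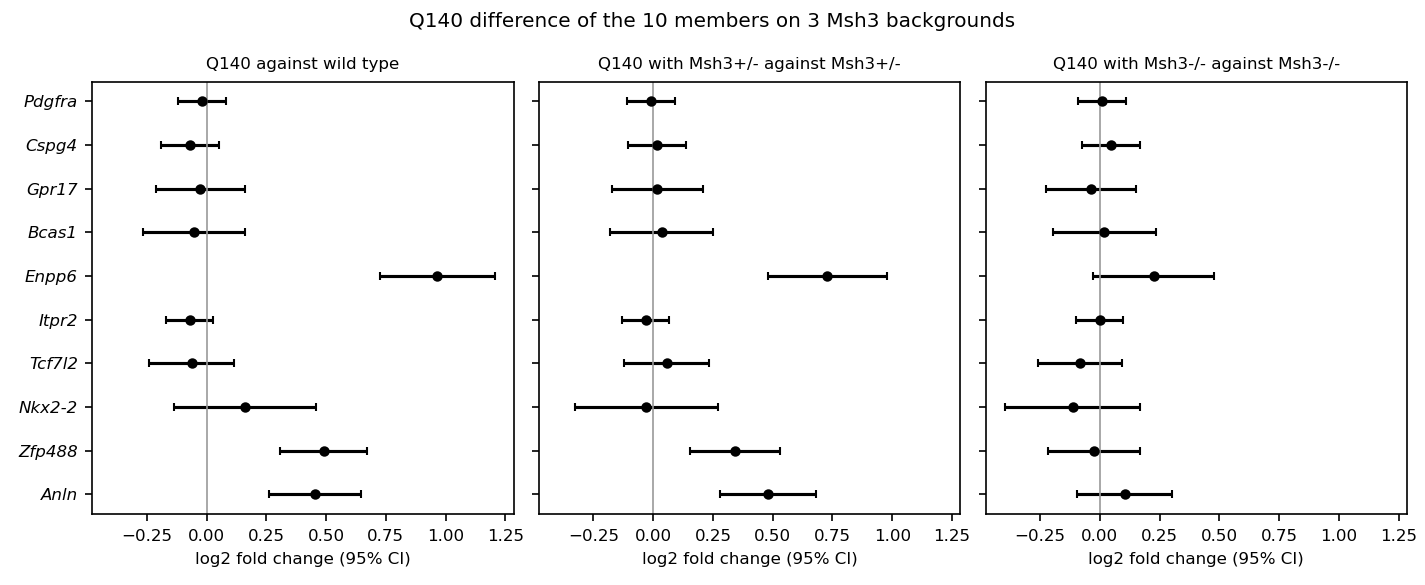
Log2 fold change (horizontal axis) with its 95% interval for each of the 10 genes, for Q140 against wild type, Q140 with Msh3+/- against Msh3+/- and Q140 with Msh3-/- against Msh3-/-, from 1 edgeR fit of 48 libraries. Enpp6 stands at 0.96, 0.73 and 0.22 in the panels from left to right, and the other 7 genes beside Enpp6, Zfp488 and Anln stay between -0.11 and 0.16.

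Averaged over Msh3+/- and Msh3-/-, 16 Q140 mice against 16 without, edgeR called 0.143% of genes and 1 of the 10. Enpp6 rose by 0.48 ± 0.089 (1.39-fold, adjusted p = 0.00282). Anln was at 0.29 ± 0.070 (adjusted p = 0.0659) and Zfp488 at 0.16 ± 0.067 (adjusted p = 0.431). DESeq2 called Anln too (adjusted p = 0.00958). Anln also passed when Msh3+/- M3, Msh3-/- F2, Msh3-/- F4 or Q140 M1 was left out, with adjusted p from 0.0275 to 0.0471. Without the 7 libraries Anln was at 0.337 (adjusted p = 0.0739). For Enpp6 the average joins 0.73 in Msh3+/- with 0.22 in Msh3-/-, where the 95% interval ran from -0.03 to 0.48. Calls of Enpp6 and Anln in the Msh3+/- part were already known when the genes were chosen, so the average is not independent of the choice.

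Positions on the plate were unequal between groups, with 4 of 8 wild-type libraries in column 3 and no Q140 library there. Within plate columns, Enpp6 was higher with Q140 in each of the 6 columns for the Msh3 mutants, by 0.086 to 0.758 on the log2 scale. It was also higher in each of the 3 columns that held both wild-type and Q140 libraries, by 0.656 to 0.984. Anln was higher in 6 of 6 and 3 of 3 columns, by 0.025 to 0.522 and 0.225 to 0.842. Each of the 3 columns with wild type held only 1 or 2 libraries per group. Enpp6 and Anln were chosen for being higher in Q140 in these libraries, so those 3 columns are a description only. Zfp488 was higher in 4 of 6 columns among the Msh3 mutants.

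Whether the Q140 difference itself differed between Msh3 genotypes was tested as an interaction. For Msh3-/- against Msh3+/-, with 0% of genes called, the differences of differences were -0.50 ± 0.178 for Enpp6, -0.37 ± 0.135 for Zfp488 and -0.38 ± 0.140 for Anln. None passed over all genes (edgeR adjusted p = 0.919 for each), although their unadjusted p-values were 0.00674, 0.00855 and 0.00971. Without the 7 libraries they were -0.588, -0.381 and -0.52 (adjusted p = 0.995 for each). Over all genes 982 (5.02%) had an unadjusted p under 0.05, and DESeq2 called 0. For Msh3-/- against Msh3+/+, also with 0% called, 626 genes (3.2%) had an unadjusted p under 0.05, and DESeq2 called 0. Enpp6 was at -0.74 ± 0.176 in that comparison (edgeR adjusted p = 0.772). Zfp488 was there at -0.52 ± 0.133 and Anln at -0.35 ± 0.137 (adjusted p = 0.95 and 1). For Msh3+/- against Msh3+/+, with 0% called as well, 646 genes (3.3%) had an unadjusted p under 0.05, and DESeq2 called 0. Enpp6 was at -0.24 ± 0.175 and Anln at 0.03 ± 0.138 in that comparison. The tests against Msh3+/+ use the Q140 and wild-type libraries that chose these genes, and are not independent of the choice. For Msh3-/- against Msh3+/-, the calls of Enpp6 and Anln in the Msh3+/- comparison were already known when the genes were chosen.

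Among Q140 mice, those with Msh3-/- had less Enpp6 and Zfp488 than those with intact Msh3. In that comparison edgeR called 0.102% of genes and 2 of the 10. Enpp6 fell by 0.59 on the log2 scale (SE 0.113, 0.66-fold, adjusted p = 0.00585) and Zfp488 fell by 0.46 (SE 0.090, 0.73-fold, adjusted p = 0.00782). All 8 libraries of Q140 with Msh3-/- were below the lowest Q140 library for both genes. For Enpp6 the groups almost touched, with 3.484 CPM in the highest library of Q140 with Msh3-/- and 3.492 CPM in the lowest Q140 library. The share of all genes that separated in this way was not counted. Anln was at -0.37 ± 0.095 (adjusted p = 0.193), with 4 of 8 libraries below. DESeq2 called Anln as well (adjusted p = 0.0429), as did edgeR without Q140 M1 (adjusted p = 0.0448), whereas Zfp488 missed the threshold when only these 16 libraries were fitted (adjusted p = 0.0618). The Q140 libraries are the ones in which these genes had been chosen for being high, so this comparison is not independent of the choice.

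Q140 with Msh3+/- against Q140 called 0.0307% of genes and none of the 10. Cspg4, at 0.15 ± 0.061, was the 1 gene of the 10 with an unadjusted p under 0.05, against 6.22% of all genes. DESeq2 called 0 of the 10. Enpp6 was at -0.19 ± 0.108, Zfp488 at -0.13 ± 0.087 and Anln at -0.19 ± 0.094. A direct comparison of Q140 with Msh3-/- against Q140 with Msh3+/-, chosen after seeing the data, called 0.0205% of genes and none of the 10. Enpp6 was at -0.40 ± 0.117 and Zfp488 at -0.33 ± 0.093 (adjusted p = 1 for both). These were the 2 of the 10 with an unadjusted p under 0.05, against 2.48% of all genes, and DESeq2 called 0.

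Without Q140, the Msh3 genotype left all 10 genes uncalled. Msh3+/- against wild type called 0.0307% of genes, and Msh3-/- against wild type 0.113%. In each, 1 of the 10 had an unadjusted p under 0.05, Anln at -0.21 ± 0.101 in Msh3+/- and Nkx2-2 at 0.30 ± 0.146 in Msh3-/-, and DESeq2 called 0 of them. Over all genes, 4.96% had an unadjusted p under 0.05 for Msh3+/- and 10.8% for Msh3-/-. Both comparisons share the wild-type libraries with the choice of the genes. Msh3-/- against Msh3+/- averaged over Q140 status called 0.0409% of genes and none of the 10. Zfp488, at -0.15 ± 0.067, was the 1 gene of the 10 at an unadjusted p under 0.05, against 2.79% of all genes. DESeq2 called 0 of the 10.

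The remaining 5 genes of the path were not called for Q140 in either Msh3 mutant genotype or over both. Gpr17, a receptor that marks committed precursors and falls silent as they mature, had medians from 28.5 to 31.6 CPM over the 6 groups. Its difference over both Msh3 mutant genotypes was -0.01 ± 0.066, with an interval from -0.14 to 0.12. Itpr2, whose product releases calcium in newly formed oligodendrocytes, had medians from 26.7 to 28.9 CPM and a difference of -0.02 ± 0.035. Tcf7l2, a Wnt effector present as newly formed cells begin to mature, had medians from 4.01 to 4.49 CPM and a difference of -0.01 ± 0.063. In each of these genes the 6 groups overlapped. Nkx2-2, a homeodomain regulator of the step from precursor to differentiating cell, had medians from 2.15 to 2.76 CPM. Its difference was -0.07 ± 0.103, and its interval, from -0.28 to 0.13, was the widest of the 10. Bcas1 had medians from 76.7 to 81.7 CPM and a difference of 0.03 ± 0.076, with an interval from -0.13 to 0.18.

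**Figure D3:**
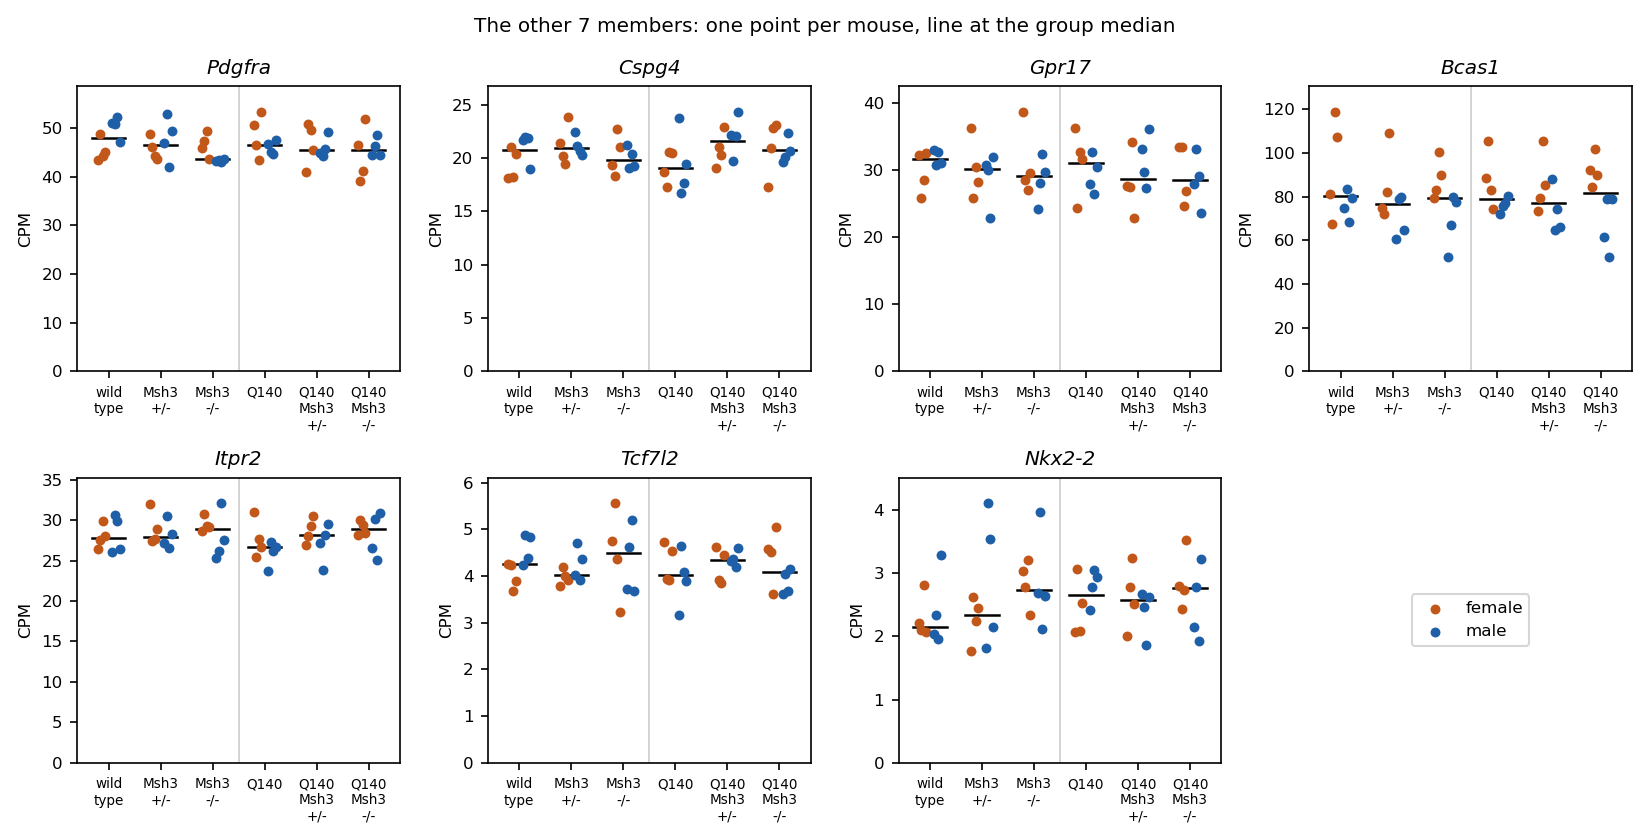
Normalized counts in CPM (vertical axis, from 0) of the other 7 genes in the 6 genotypes, 1 point per mouse, females orange and males blue, with a bar at the group median. The groups overlap in every panel, and in Bcas1 the female points tend to lie above the male points.

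Wider lists of the same path had medians near that of the whole table. They too were drawn up with earlier results of these data known. Over both Msh3 mutant genotypes, Q140 changed 0 of 20 further precursor genes (median log2 fold change -0.02) and 0 of 18 further genes of committed and newly formed cells (median 0.00). It changed 0 of 20 regulators of differentiation (median -0.00), against a median of -0.00 over all genes tested. Of 20 mature myelin genes 1 fell, Tspan2, a tetraspanin of myelinating cells (-0.21 ± 0.047, adjusted p = 0.0452), and the median was -0.01. Of 5 tested relatives of Enpp6 in the ENPP family none was called (median -0.01), nor were any of 14 Wnt targets and partners of Tcf7l2 (median -0.01).

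Of 10 tested genes of cell division, the setting in which anillin is best known, none was called, and their median was 0.04. Mki67, a marker of dividing cells, had medians of only 0.323 to 0.465 CPM in the Msh3 mutant groups with and without Q140.

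Genes of other cell types were read in the same comparison. Of 10 astrocyte genes 3 fell, Slc1a2 (-0.17 ± 0.029, adjusted p = 0.000813), Glul (-0.16 ± 0.028, adjusted p = 0.000813) and Gja1 (-0.15 ± 0.033, adjusted p = 0.0237). They encode a glutamate transporter, glutamine synthetase and the gap junction protein connexin 43. Of 10 cortical glutamatergic genes Camk2a fell (-0.11 ± 0.023, adjusted p = 0.0173). None was called among 10 microglial, 11 mural, 10 thalamic and 8 striatal genes.

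Meningeal and choroid plexus genes were lower with Q140 without being called. All 10 meningeal genes were below 0 (median -0.28), as were all 7 choroid plexus genes tested (median -0.95) and all 3 pituitary genes (median -1.66). Summed choroid plexus levels reached 621 CPM in Msh3+/- and 22.4 CPM in wild type, against at most 13.7 CPM in the 3 groups with Q140. Without the 7 libraries high in such transcripts the averaged difference of Enpp6 was 0.546 (adjusted p = 0.00302). Summed meningeal levels ran from 71.5 to 185 CPM in the 3 groups without Q140 and from 23.1 to 166 CPM in those with it. The part of meningeal tissue in the result was not tested.

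Sex was compared over all genotypes, 24 females against 24 males, where edgeR called 4.28% of all genes and 1 of the 10. Bcas1 was higher in females by 0.30 ± 0.062 on the log2 scale (1.23-fold, adjusted p = 0.00264), at 88.6 against 72.3 CPM. Female libraries ran from 67.3 to 119 CPM and male libraries from 52.2 to 87.8 CPM, so the sexes overlapped. The female mean was higher in 6 of 6 genotypes, by 0.193 to 0.456. Without the 7 libraries with choroid plexus or pituitary transcripts, all male, the difference was 0.325 (adjusted p = 0.012). Enpp6 was at -0.14 ± 0.071 (adjusted p = 0.285), lower in females in 5 of 6 genotypes.

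Genes of several cell types were called with sex beside Bcas1. Of 20 mature myelin genes 9 were called higher in females and none lower, with a median of 0.16, among them Mag at 0.26 ± 0.052 and Mobp at 0.28 ± 0.064. With the mean myelin level as a covariate, Bcas1 was at 0.144 and no longer passed (adjusted p = 0.0938). Haemoglobin genes were also higher in females, 4 of 4, with a median of 2.02, and 2 of 3 pituitary genes were lower. Of 10 microglial genes C1qa, C1qb and C1qc, the chains of complement C1q, were higher. Of 10 astrocyte genes S100b was higher and Gja1 lower, and of 10 cortical glutamatergic genes Slc17a7 was lower. Of the wider lists of the path, 1 of 20 precursor genes was higher (Olig1), 2 of 18 genes of committed and newly formed cells were lower (Tmem2 and Mycl) and 2 of 20 regulators were higher (Olig1 again and Smad7). One thalamic gene was higher and 1 lower (Rgs16 and Calb2). The part of these other transcripts in the difference was not tested. The genes named here were chosen after their values were seen. Whether the Q140 difference depended on sex was tested in the Msh3 mutants. There 0% of genes were called, 887 (4.54%) had an unadjusted p under 0.05, and DESeq2 called 0. The Q140 difference of Enpp6 differed between the sexes by 0.06 ± 0.182.

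Mice of the same genotype and sex also differ, and those deviations show which genes vary together. They were correlated over 48 libraries for all 45 pairs of the 10 genes, with a two-sided permutation test. No pair passed after adjustment over the 45 pairs when libraries were permuted within genotype and sex, as the removed means require, although 7 had an unadjusted p under 0.05. This form of the test was chosen after seeing the data. The highest values were those of Bcas1 and Nkx2-2, with Pearson's r = 0.448 (permutation p = 0.00618, adjusted 0.215) and Spearman's rho = 0.44, and of Enpp6 and Nkx2-2, with r = 0.433 (permutation p = 0.0158, adjusted 0.215) and rho = 0.381. When libraries were permuted freely over all 48, these 2 pairs passed with Pearson's r (permutation p = 0.00139 and 0.00209, adjusted 0.047 for both) and none passed with Spearman's rho (permutation p = 0.00186 and 0.00779, adjusted 0.0837 and 0.0943). Without the 2 libraries farthest from the median, r was 0.454 and 0.408, and no pair passed with free permutation either.

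Once the mean level of the mature myelin list was removed, r was 0.15 and 0.269 in these pairs. Bcas1 itself followed that level with r = 0.751, Nkx2-2 with 0.48 and Enpp6 with 0.468, whereas Pdgfra was at -0.223. Among the 3 genes chosen for their difference in Q140, r within groups was near 0. It was 0.0593 for Enpp6 and Zfp488 (unadjusted permutation p within genotype and sex = 0.747), 0.0396 for Enpp6 and Anln (p = 0.8) and 0.0514 for Zfp488 and Anln (p = 0.767). The lowest values were those of Anln with Pdgfra (r = -0.353) and with Cspg4 (r = -0.35), which did not pass.

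**Figure D4:**
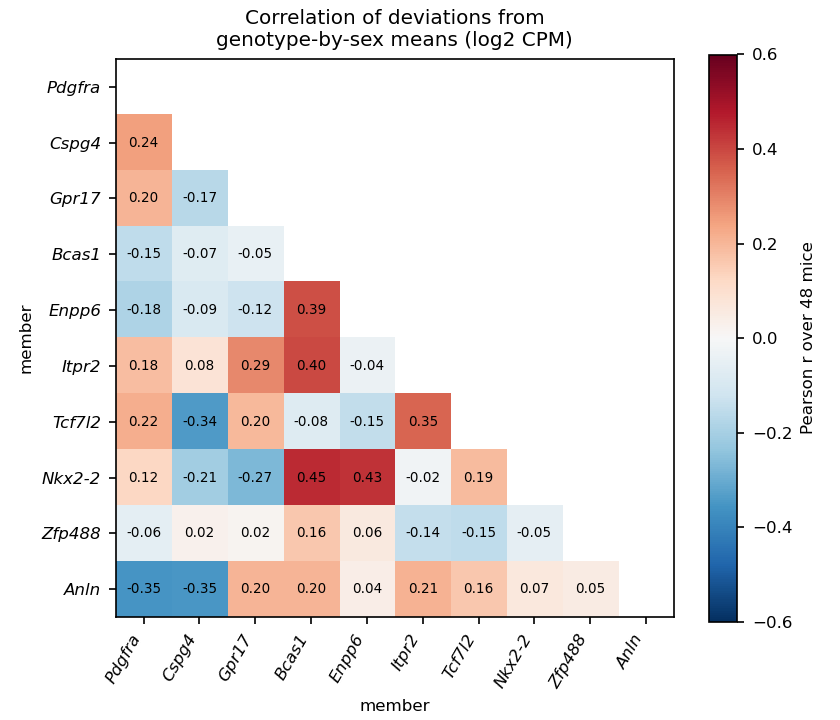
Pearson's r between each pair of the 10 genes, both axes listing the genes, over 48 mice after the mean of each genotype-by-sex cell was removed from log2 CPM, with blue below 0 and red above. The highest values are 0.448 for Bcas1 with Nkx2-2 and 0.433 for Enpp6 with Nkx2-2, and the squares that join Enpp6, Zfp488 and Anln are near 0.

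Over 15112 genes with a mean of at least 1 CPM, those whose deviations were most like Enpp6 were Trim7 (r = 0.63), Opalin (0.63), Litaf (0.60), Il33 (0.59) and Tmem88b (0.58), over 48 libraries and with no test. They share libraries and depth with Enpp6. Their differences in Q140 with Msh3+/- against Msh3+/- were 0.13, -0.09, -0.01, -0.23 and 0.16 on the log2 scale, against 0.73 for Enpp6. Nkx2-2 ranked 143 and Bcas1 301 among the 15112, and Zfp488 5979.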

How the data were processed

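RNA of 48 cortices was sequenced from stranded libraries. The submitters' processing notes name STAR 2.7.5c, SAMtools 1.10, HTSeq 0.12.3 and the build GRCm38; the annotation release and strand setting are not given in the sources used here. The deposited counts are whole, unnormalized counts per gene, and the deposited FPKM values divide them by gene length and library total.

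One edgeR 4.0.16 quasi-likelihood model (R 4.3.3) with 6 genotypes and sex was fitted to all 48 libraries after filterByExpr (minimum count 10, total 15) and TMM scaling. P-values were adjusted by Benjamini-Hochberg over 19547 genes and called under 0.05. CPM are counts scaled to the TMM-adjusted library total. Each group had 8 mice. Alternatives used limma 3.58.1 and DESeq2 1.42.0. The SEs cover counting error and the variation among mice. On simulated counts for Q140 averaged over Msh3+/- and Msh3-/- (19354 genes), 22 of 50 genes changed by 0.2 (log2) were recovered, 38 of 50 at 0.4, 44 of 49 at 0.8 and 47 of 50 at 1.2, and 8 unchanged genes were called.

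The 10 genes and the gene lists were chosen with earlier results of these data known. Named genes were the 10, at most 4 called genes of smallest adjusted p per list in Q140 averaged over Msh3+/- and Msh3-/-, and the 5 genes most like Enpp6; others are said to be chosen later. Correlations used 100000 permutations. None of the 168 pairs of libraries of 1 genotype agreed within sampling noise.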

Additional observations from a re-analysis of the deposited data

Results flagged for a closer look

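In 60 sets of 8 libraries (10 genes in 6 genotypes), the highest or lowest library was compared with its nearest neighbour, relative to the range of the set. Bcas1 in Msh3+/- stood out, where female F4 had 109 CPM and the next library 82.2 CPM, a gap of 0.555 of the range. Chance flags about 1 in 20 such sets, so 1 in 60 is no more than chance gives. Bcas1 was called higher in females in all 48 fits that left out 1 library, that of Msh3+/- F4 included.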

How the results depend on the processing

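Over Msh3+/- and Msh3-/- together, where 1 of the 10 genes was called for Q140, DESeq2 and a fit with the myelin level as covariate called 2, and leaving out single libraries gave 1 to 2. For Q140 with Msh3+/- against Msh3+/-, with 2 called, 1 was called with the name prefix as a random block, 1 without the filter on low counts, 0 in a fit of the groups compared alone, and 1 to 2 without single libraries. For Q140 with Msh3-/- against Q140, with 2 called, the fit of those groups alone called 1 and leaving out single libraries gave 2 to 3. For female against male, with 1 called, 0 were called with the myelin covariate. The 2 correlated pairs fell to 0 with Spearman's rho, 0 without the 2 farthest libraries, 0 with the myelin level removed and, in an alternative chosen after seeing the data, 0 with libraries permuted within genotype and sex. The fit of fewer groups has fewer libraries to estimate the spread, and free permutation ignores the removed means; the cause of the other changes was not tested. No called result changed sign under these alternatives. Counts over all genes moved more. For Q140 over both Msh3 mutant genotypes, edgeR called 28 genes, DESeq2 59 and the myelin covariate gave 54. For Q140 against wild type the 20 became 34 with DESeq2, 33 with the myelin covariate, 11 with a plate column term and 7 without the 7 libraries with choroid plexus or pituitary transcripts. For Q140 with Msh3+/- against Msh3+/- the 10 became 22, 34 with the myelin covariate and 17 with the replicate block. Msh3+/- against wild type went from 6 to between 1 and 10, and female against male from 837 to 320 with the myelin covariate and 433 without those 7. A fit of the groups compared alone took Msh3-/- against wild type from 22 to 13, as did leaving out those libraries, Q140 with Msh3-/- against Q140 from 20 to 12 and Q140 with Msh3-/- against Msh3-/- from 4 to 2. The replicate numbers showed no clear pairing of the mice. The same number was the best match among the 4 mice of that sex in 34 of 120 cases. Of the 120 same-number correlations 47 exceeded 0.1, and their median was 0.038. With a replicate block, Enpp6 differed by 0.476 (adjusted p = 0.00143) over both Msh3 mutant genotypes, and the block changed no call among the 10 genes. Counts were low for Enpp6 (54 to 247 per library) and Zfp488 (73 to 179), and the part of depth in their precision was not tested.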
